A study of Mus musculus with 45 samples.

Results

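Organoids treated with all-trans retinoic acid (RA) for 42 h were compared with untreated organoids that were 36 h older, at 78 h. The comparison is defined by treatment and time alone and was chosen with earlier results of these data known. It takes in 6 of the 45 libraries of the series, 3 of RA 42 h and 3 of untreated 78 h, and every gene with enough counts, which left 16569 genes tested. Its question is which of the differences seen between treated and untreated organoids of the same age are gone once the untreated organoids have had more time, and which are still there. The 3 untreated 42 h libraries served for the same-age comparison.

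All libraries came from R1 mouse embryonic stem cells, an established line, grown from single cells into hollow epithelial organoids in Matrigel and in N2B27, a serum-free neural induction medium. Hours were counted from day 2 and are those of the sample titles. The protocol text in the labels has 68 h and 80 h in place of 66 h and 78 h. The treated organoids received RA at 250 nM at day 2, and the untreated organoids had the same medium with 0 nM. Each population was measured in 3 libraries named as biological replicates, as read counts per gene from poly(A) RNA. All 3 RA 42 h libraries carry numbers of an earlier series and all 3 untreated 78 h libraries carry numbers of a later one, so that treatment, age and library series cannot be told apart within these 6 libraries. Untreated 42 h belongs to the earlier series, and the same-age comparison is therefore free of this change.

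RA is a small lipophilic ligand made from vitamin A by retinaldehyde dehydrogenases. It binds RAR receptors, which sit with RXR partners on direct repeats of a short DNA motif and switch on the genes nearby. Among the genes switched on are those for its own receptor, its own breakdown enzymes of the Cyp26 family and the Hox genes that give hindbrain and spinal cord their position. In the embryo, and in stem cell cultures, RA also drives cells out of the pluripotent epiblast state towards posterior neural tube. Untreated cells in N2B27 leave that state as well and take on neural identity by default.

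RA 42 h and untreated 78 h had similar levels for most genes. A gene was called when its adjusted p in edgeR's quasi-likelihood test was below 0.01 and its fold change exceeded 2-fold. It was placed within 2-fold when it was not called and the whole 95% interval of its fold change lay inside 2-fold in either direction, and otherwise it stayed undecided. By these criteria 12200 genes (73.6%) were within 2-fold, 1032 (6.23%) were higher in RA 42 h, 747 (4.51%) were lower, and 2590 (15.6%) were undecided. The called genes came to 10.7% of those tested. The 3 libraries of RA 42 h lay wholly above those of untreated 78 h in 27.5% of genes and wholly below in 27.9%, which is the background for the separations described for single genes. In bulk RNA of this kind, fewer cells that express a gene and less of its RNA per cell cannot be told apart. In the plot of mean levels the bulk of genes lies along the diagonal, with Stra8, Cyp1b1, Sfrp5 and Rarb far above it and Cyp26b1, Egr2 and Fgf5 far below.

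**Figure D1:**
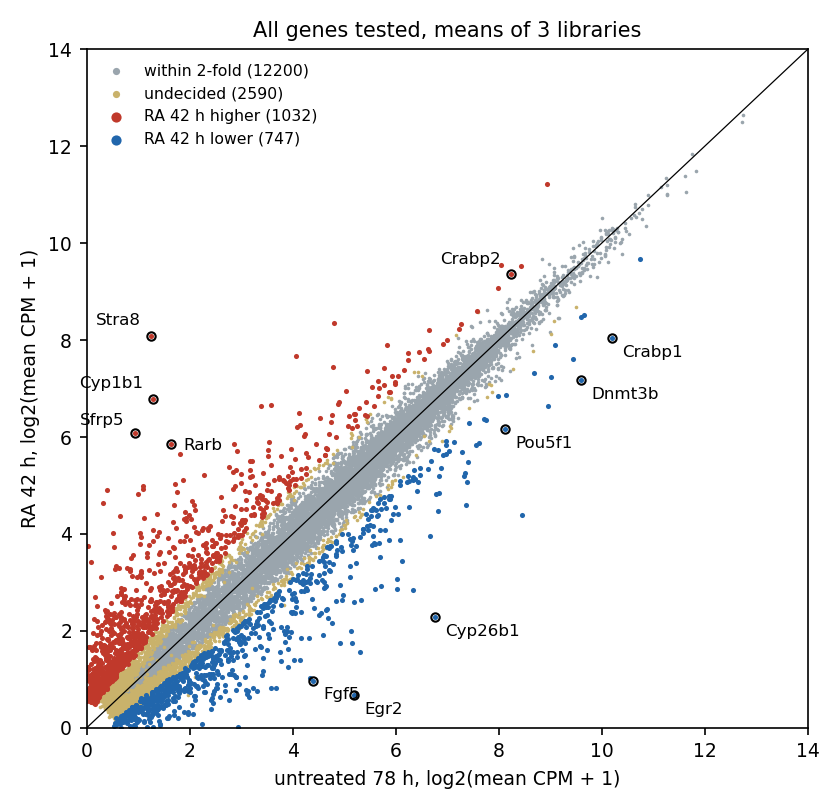
Mean level of every gene tested in untreated 78 h (horizontal axis) and in RA 42 h (vertical axis), both as log2 of the mean CPM of 3 libraries plus 1. Red points are the 1032 genes called higher in RA 42 h, blue points the 747 called lower, grey points the 12200 within 2-fold and yellow points the 2590 undecided genes. Circled genes are named in the text, and the line marks equal levels.

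RA 42 h was set against untreated organoids of every age in turn. The called genes numbered 3911 against untreated 18 h (23.6% of those tested), 3004 against 30 h (18.7%), 2056 against 42 h (12.5%), 1743 against 54 h (10.6%), 1706 against 66 h (10.1%) and 1779 against 78 h (10.7%). The number fell up to 54 h and stayed between 1706 and 1779 after that, with the lowest value at 66 h. These comparisons share the RA 42 h libraries, and the untreated libraries are of the earlier series up to 42 h, of both at 54 h and of the later from 66 h on. Untreated organoids changed in the same interval: 876 genes were higher and 490 lower at 78 h than at 42 h (8.28% of 16501 genes). The untreated 30 h libraries had low levels of Y-linked genes, with means of 3.28, 2.58 and 3.20 CPM. In RA 42 h these means were 24.0 to 32.1 CPM. The cause was not tested.

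Of the genes that differed at the same age, a large share had closed by 78 h and a larger share had not. Closed means within 2-fold, so that a smaller difference may remain. At the same age 69.6% of genes had been within 2-fold. RA had raised 1237 genes at 42 h (7.49% of 16508 tested). Against untreated 78 h, 644 of them (52.1%) were still higher, 375 (30.3%) were within 2-fold, 183 were undecided and 35 had become lower than in the older untreated organoids. RA had lowered 819 genes at 42 h (4.96%). Of these, 366 (44.7%) were still lower, 218 (26.6%) were within 2-fold, 188 were undecided, 46 had too few counts to be tested and 1, Tnfsf11, had become higher. Both comparisons use the same RA 42 h libraries. With a term for library series in a fit of all 45 libraries, 577 raised genes were still higher and 233 within 2-fold, and 302 lowered genes were still lower and 141 within 2-fold. Raised and lowered genes were called anew in that fit, so these numbers are not shares of the 1237 and 819.

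**Figure D2:**
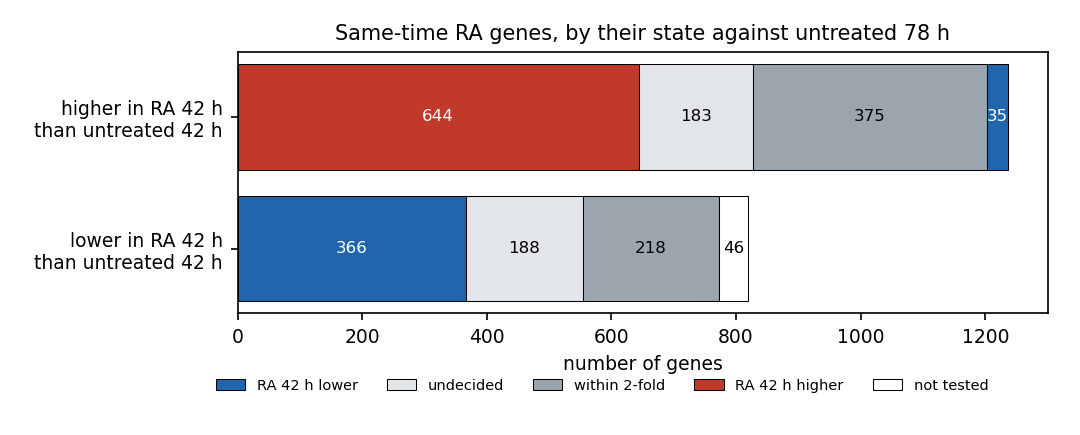
Genes called in RA 42 h against untreated 42 h, as bars of gene number split by their state in RA 42 h against untreated 78 h. Of the 1237 raised genes 644 were still higher and 375 within 2-fold, and of the 819 lowered genes 366 were still lower and 218 within 2-fold. The single lowered gene that became higher is too thin to see.

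A second group of differences was not called at 42 h. Of the 1032 genes higher in RA 42 h than in untreated 78 h, 162 had been within 2-fold of untreated 42 h and 217 undecided. Of the 747 lower genes, 119 had been within 2-fold, 165 undecided and 62 not tested. Undecided genes may have differed at the same age too.

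The promoters of Rarb and Cyp26a1 are shown because they carry the RA response motif that these genes are known for, and because both genes stayed higher in RA 42 h than in untreated 78 h. The motif was searched as a direct repeat with any 5 bases between its copies, on both strands. Each copy could read AGGTCA, the variant with a different base inside it that reads AGTTCA, or either form with another leading base, which is GGGTCA in the former case and GGTTCA in the latter. The search ran from 250 bases before to 50 after each RefSeq start site (build GRCm38.p6). The stretches below are the 120 bases before the start site on the gene's own strand, with the repeat in capitals. Rarb lies on the minus strand of chr14:16575477-16575596 and Cyp26a1 on the plus strand of chr19:37697688-37697807.
Rarb: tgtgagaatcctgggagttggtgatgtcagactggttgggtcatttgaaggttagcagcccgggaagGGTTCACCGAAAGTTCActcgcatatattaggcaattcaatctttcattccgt
Cyp26a1: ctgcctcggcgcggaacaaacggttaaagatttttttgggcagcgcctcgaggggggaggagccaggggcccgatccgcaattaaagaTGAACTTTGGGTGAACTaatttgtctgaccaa
In Rarb the repeat runs from base -53 to -37 before the start and reads in the direction of the gene. In Cyp26a1 it runs from -32 to -16 and reads on the opposite strand. The motif is rare in such windows: 32 of 32851 promoters (0.0974%) hold it. Of the 644 genes raised at 42 h and still higher than untreated 78 h, 435 had a promoter in the table, and Rarb and Cyp26a1 were the only 2 of them that held it. None of the 263 raised genes that had closed and had a promoter held it. Of all 11728 tested genes with a promoter, 6 held it (0.0512%). The others were Prokr2 and Syndig1, which were called higher than untreated 78 h but not at the same age, and Blvrb and Cfap45, which were within 2-fold. With 2 bases between the copies the repeat was found in Slc25a21 and Tinagl1 among the 435 (0.268% of all promoters hold it), and with 1 base in Rhox1 (0.222%). The form with 2 bases was thus held by 0.46% of the 435, against 0.111% of the tested genes with a promoter. For the form with 1 base these shares were 0.23% and 0.281%. Of the 263 closed genes, Akt1 held the form with 1 base. A match describes letters in a window and not a bound site.

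Genes of the RA pathway were mostly apart, in both directions. Among the lower ones, only Rxrg had been called at the same age. Of 19 tested, 10 (52.63%) were higher in RA 42 h than in untreated 78 h, 4 (21.05%) were lower and 5 (26.32%) were within 2-fold. Over all genes tested these shares were 6.23%, 4.51% and 73.6%, which is the background for the lists below as well. The list and all others below were drawn up with earlier results of these data known, and their counts are descriptions.

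Rarb, the RA receptor that RA itself induces, read 59.4, 58.4 and 53.6 CPM (counts scaled to library size) in the RA 42 h libraries and 1.9, 2.32 and 2.06 CPM in untreated 78 h. The groups were far apart, with a log2 fold change of 4.77 ± 0.09 (SE, adjusted p = 9.6e-12). Untreated organoids had risen on their own from 0.861, 1.03 and 0.696 CPM at 42 h, by 1.29 on the log2 scale, which left most of the gap in place. Cyp26a1, the RA-degrading enzyme of early embryos, read 27.5, 29.8 and 28.7 CPM in RA 42 h and 6.71, 6.6 and 9.11 CPM in untreated 78 h. Its log2 fold change was 3.11 at the same age and 1.94 ± 0.11 against untreated 78 h (adjusted p = 5.2e-08). Part of the gap had thus gone while the libraries stayed apart.

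Stra8, named for its induction by RA and needed for entry into meiosis, was among the largest rises. It read 277, 270 and 268 CPM in RA 42 h and 1.87, 1.42 and 0.868 CPM in untreated 78 h, a log2 fold change of 7.66 ± 0.13 (adjusted p = 6.4e-12). Untreated organoids changed by -1.24 on the log2 scale from 42 h to 78 h, so the gap was wider than the 6.38 found at the same age. Dhrs3, which turns retinaldehyde back into retinol, was higher by 3.54 ± 0.12 (adjusted p = 8.7e-10), against 3.58 at the same age. The synthetic enzymes Aldh1a1 (3.54) and Aldh1a2 (2.28), the retinol transporter Stra6 (1.88), the co-regulator Nrip1 (1.16) and the RA carrier Crabp2 (1.13) were also higher. Crabp2 shows a gap that was closing, since its log2 fold change was 3.13 at the same age and the untreated libraries rose from 68.6, 86.2 and 68 CPM at 42 h to 295, 292 and 315 CPM at 78 h, below the 704, 640 and 624 CPM of RA 42 h.

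The 4 lower genes of the pathway had different histories. Rxrg, an RXR partner, was lower at both ages. Crabp1, another RA carrier, and Cyp26b1, the RA-degrading enzyme found later in the hindbrain, were lower after a rise in untreated organoids, and neither was called at the same age. Cyp26b1 read 1.68, 2.95 and 2.38 CPM in untreated 42 h, 102, 84.8 and 137 CPM in untreated 78 h and 3.77, 3.34 and 4.44 CPM in RA 42 h, which gave a log2 fold change of -4.80 ± 0.18 (adjusted p = 1.9e-09). Crabp1 read 192, 247 and 193 CPM in untreated 42 h, 1160, 1200 and 1150 CPM in untreated 78 h and 265, 233 and 286 CPM in RA 42 h, a log2 fold change of -2.16 ± 0.07. Cyp26c1, a further enzyme of that family, had a log2 fold change of -3.45, at no more than 0.515 CPM in any RA 42 h library. RA organoids did not reach the untreated 78 h level of Cyp26b1 or Cyp26c1 at their own 78 h, where the means were 4.1 CPM and 0.162 CPM.

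Most Hox genes were still higher. Of 26 tested, 17 (65.4%, against 6.23% of all genes) were higher in RA 42 h. The rest were 2 within 2-fold and 7 undecided, with none called lower. The summed Hox level ran from 589.7 to 648.9 CPM in RA 42 h and from 216.7 to 228.7 CPM in untreated 78 h, and had been 106.9 to 155.7 CPM in untreated 42 h.

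Hoxb1 and Hoxb2, which mark hindbrain segments, were the 2 within 2-fold. Hoxb1 read 54.3, 60.6 and 63.2 CPM in RA 42 h and 57, 60.4 and 56 CPM in untreated 78 h, a log2 fold change of 0.05 with a 95% interval from -0.09 to 0.19. Hoxb2 read 85.4, 76.8 and 74.3 CPM against 66.9, 65.6 and 68.1 CPM, having differed by 1.75 on the log2 scale at the same age. Hoxa2 was undecided at -0.87 and stood higher in all untreated 78 h libraries.

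The 17 Hox genes called higher spanned a wide range of differences. Hoxb4 read 54.3, 51 and 42 CPM in RA 42 h and 2.83, 2.49 and 2.17 CPM in untreated 78 h (log2 fold change 4.31 ± 0.12, adjusted p = 2.1e-10). Hoxb5 read 26.9, 24.8 and 19.7 CPM and at most 0.323 CPM, a log2 fold change of 6.66 ± 0.21 (adjusted p = 3.7e-10). Hoxd3 (5.17), Hoxc5 (5.09), Hoxa5 (4.79), Hoxa4 (4.04) and Hoxb6 (3.88) followed. The difference in Hoxb3 had narrowed from 4.54 at the same age to 2.32. Hoxd13 was called higher at no more than 1.16 CPM and had been within 2-fold at the same age.

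The cofactors that bind DNA with Hox proteins were mostly within 2-fold. Of 9 Meis and Pbx genes, 8 (88.9%, against 73.6% of all genes) were within 2-fold and 1 was higher. At the same age 4 had been higher, and the other members had not been called. Meis1 read 114, 102 and 101 CPM in RA 42 h, 66.6, 63.3 and 68.7 CPM in untreated 78 h and 9.58, 15.3 and 10.3 CPM in untreated 42 h. Its log2 fold change fell from 3.16 at the same age to 0.68, with a 95% interval from 0.55 to 0.81, so the RA libraries were still all above the untreated ones.

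Several genes of lineages outside the neural one were also higher. Of 9 endoderm genes tested, 5 (55.6%, against 6.23% of all genes) were higher in RA 42 h and none was lower. At the same age 4 had been higher. A further 3 had too few counts, and the list's median log2 fold change was 2.86 against 0.00437 over all genes tested. Sox17, an endoderm regulator, read 6.75, 9.1 and 6.9 CPM in RA 42 h and 0.323, 0.145 and 0.163 CPM in untreated 78 h (log2 fold change 5.21 ± 0.27, adjusted p = 1.9e-08). Sox7 and Gata6 were higher too, as was Apob, which had not been called at the same age. Foxa2, which serves in endoderm and in the floor plate, was higher by 4.18 ± 0.20 and Foxa1 by 4.79 ± 0.18. The summed level of the list was low all the same, from 27.56 to 32.49 CPM in RA 42 h and from 4.638 to 7.856 CPM in untreated 78 h.

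Ventral and epithelial genes were more often higher than lower. Of 11 floor plate and ventral genes, 6 were higher (Foxa1, Foxa2, Nkx2-9 and the Hedgehog targets Gli1, Ptch1 and Hhip) and 2 were lower (Nkx6-1 and Spon1), while Shh itself had too few counts to be tested. These were 54.55% and 18.18% of the list, against 6.23% and 4.51% of all genes. Of 13 genes of simple epithelium and trophoblast, 7 (53.85%, against 6.23% of all genes) were higher and none lower. Their keratins were Krt7 (2.81), Krt8 (1.85), Krt19 (1.53) and Krt18 (1.45), intermediate filaments of single-layered epithelia. Krt8 read 66.8, 66.3 and 58.4 CPM in RA 42 h and 17.4, 19.2 and 16.6 CPM in untreated 78 h, and untreated organoids had not moved since 42 h (0.03). Gata2 (3.38), Gata3 (1.98) and Tfap2c (1.87), regulators of surface ectoderm and trophoblast, were higher as well. In RA organoids of 78 h the Krt8 mean was 218 CPM.

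The dorsal genes divided. Of 12 tested, 5 were higher in RA 42 h, among them Lmx1a (4.29) and Msx1 (3.62), which mark roof plate and dorsal midline, and 3 were lower, Pax7, Olig3 and Wnt3. These were 41.67% and 25% of the list, against 6.23% and 4.51% of all genes. Pax7, an intermediate dorsal gene, is described below with the genes whose direction turned. Meox1 (4.67 ± 0.21), a somite regulator, was among 3 of 13 mesoderm genes that were higher, while T, the primitive streak gene, was lower (-2.03) at no more than 4.1 CPM in any of the 6 libraries.

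Among genes with a mean of at least 1 CPM over the 6 libraries, the 8 largest rises included Ccdc198 (listed as ccdc198), Stra8, Hoxb5, Arg1, Cyp1b1, Sfrp5 and Spink1. The gene listed as ccdc198, whose function is not well described, was at or under 3 counts in each untreated 78 h library, which makes it at least 117-fold higher. On the same ground Spink1, a trypsin inhibitor, was at least 20.3-fold higher. Cyp1b1, a cytochrome P450, read 99.6, 117 and 113 CPM against 1.72, 1.62 and 1 CPM (log2 fold change 6.27 ± 0.13, adjusted p = 1.7e-11). Sfrp5, a secreted Wnt inhibitor, read 76.9, 64.3 and 58.8 CPM against 0.825, 0.869 and 1.06 CPM (6.17 ± 0.14). Arg1, the arginine-cleaving enzyme, was higher by 6.49 ± 0.13. For Cyp1b1 and Sfrp5 untreated organoids had not moved since 42 h, with log2 changes of -0.29 and -0.14. By 78 h RA organoids had themselves come down to means of 20.2 CPM for Cyp1b1 and 2.51 CPM for Sfrp5, whereas Arg1 was at 21.9 CPM.

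**Figure D3:**
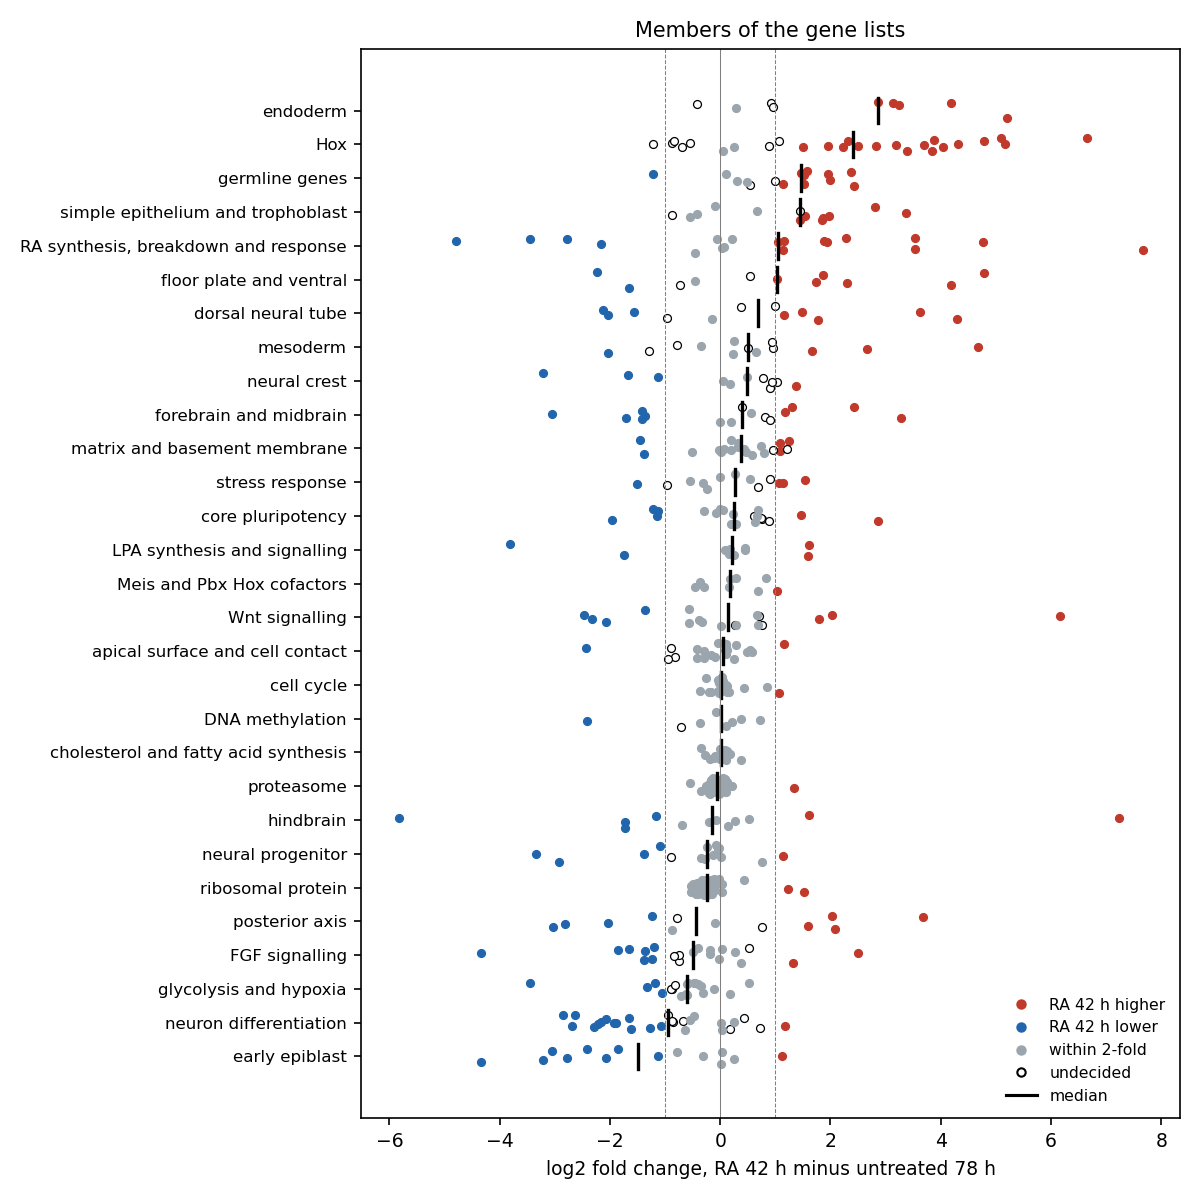
Log2 fold change of RA 42 h minus untreated 78 h (horizontal axis) for each tested member of the gene lists (vertical axis, ordered by median). Red and blue points are members called higher and lower, grey points lie within 2-fold, open points are undecided, black bars are medians and dashed lines mark 2-fold. Endoderm, Hox and germline genes sit mostly to the right and early epiblast and neuron genes mostly to the left, while cell cycle, cholesterol and proteasome genes crowd around 0.

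Genes of the early state were in part lower still. Of 14 early epiblast genes tested, 8 (57.1%, against 4.51% of all genes) were lower in RA 42 h than in untreated 78 h. Of the others, 1 was higher and 5 were within 2-fold, and the 14 had a median log2 fold change of -1.49. Their summed level ran from 729.8 to 792.7 CPM in RA 42 h and from 1595 to 1789 CPM in untreated 78 h. Untreated organoids had come down from 2511 to 2811 CPM at 42 h, and 7 of the 14 had fallen in that time.

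Fgf5, the classical marker of the primed epiblast, read 0.512, 1.11 and 1.27 CPM in RA 42 h and 18, 22.7 and 19.3 CPM in untreated 78 h. The log2 fold change was -4.33 ± 0.20 (adjusted p = 6.9e-09), after -5.72 at the same age. Otx2, which marks epiblast and later forebrain and midbrain, read 2.19, 9.41 and 10.8 CPM against 65.3, 64.5 and 61.4 CPM (-3.05 ± 0.28, adjusted p = 3.7e-06). Foxd3 (-3.21), Pou3f1 (-2.78), Dnmt3b (-2.42), Lef1 (-2.06) and Fgf8 (-1.86) were lower too. Dnmt3b, the de novo DNA methyltransferase of the epiblast, read 129, 153 and 147 CPM in RA 42 h and 713, 834 and 760 CPM in untreated 78 h. Its relative Dnmt3a was within 2-fold but still lower (-0.37, 95% interval from -0.48 to -0.26).

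Core pluripotency genes were divided further. Of 20 tested, 4 (20%, against 4.51% of all genes) were lower in RA 42 h and 2 (10%, against 6.23%) were higher. A further 10 were within 2-fold (50%, against 73.6%) and 4 were undecided. Pou5f1, the central pluripotency factor, read 56.4, 79.6 and 76 CPM in RA 42 h, 284, 302 and 246 CPM in untreated 78 h and 598, 534 and 599 CPM in untreated 42 h. Its log2 fold change was -1.97 ± 0.11 against the older organoids (adjusted p = 5.9e-08) and -3.04 against those of its own age. L1td1 (-1.13), Tdgf1 (-1.23) and Utf1 (-1.14) were the other 3. All 3 lost the call when RA 42 h replicate 1, their lowest library, was left out, at -0.94, -0.86 and -0.95.

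Other genes of the pluripotent state were within 2-fold. Nanog read 69.5, 98.7 and 103 CPM in RA 42 h and 91.1, 101 and 82.7 CPM in untreated 78 h, a log2 fold change of -0.01 with a 95% interval from -0.27 to 0.25, and it was within 2-fold at the same age as well. Sox2, shared by pluripotent and neural cells, was at -0.07 (interval from -0.18 to 0.04). Nodal, the epiblast growth factor, had closed: its log2 fold change was -1.19 at the same age and 0.03 (interval from -0.29 to 0.36) against untreated 78 h. Gdf3, a Nodal-related ligand, and Spry4, an FGF feedback inhibitor, closed in the same way, from -1.07 to 0.05 and from -1.56 to -0.03. Tbx3 went the other way. It was higher in RA 42 h at both ages, by 2.97 and 2.86.

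Growth factor and adhesion genes of the early state followed both courses. Of 21 FGF signalling genes, 7 (33.3%, against 4.51% of all genes) were lower in RA 42 h, 2 were higher and 8 were within 2-fold. Fgf4, the FGF ligand of pluripotent cells, had log2 fold changes of -2.88 at the same age and -1.38 ± 0.16 against untreated 78 h. Cdh1, the epithelial cadherin, went from -1.53 to -0.42 (interval from -0.60 to -0.25), which was within 2-fold but still lower. Enpp2, the enzyme that makes lysophosphatidic acid, had hardly closed. It read 0.605, 0.96 and 0.714 CPM in RA 42 h, 9.9, 13.1 and 9.74 CPM in untreated 78 h and 15.2, 17.8 and 17 CPM in untreated 42 h, so that -4.44 at the same age became -3.81 ± 0.20 (adjusted p = 2.4e-08). Lpar4, one of the receptors for that lipid, was at -1.96 at the same age and at -1.74 against untreated 78 h. Of the 10 genes of that list, 2 (20%, against 6.23% of all genes) were higher in RA 42 h and 2 (20%, against 4.51%) were lower. The other 6 (60%, against 73.6%) were within 2-fold.

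Wnt8a and Nkx1-2, genes of the caudal epiblast, were much higher in untreated organoids of both ages. Wnt8a read 20.3, 23.8 and 25 CPM in RA 42 h, 149, 177 and 163 CPM in untreated 78 h and 181, 218 and 199 CPM in untreated 42 h. Its log2 fold change was -2.81 ± 0.08 (adjusted p = 2.5e-10). Nkx1-2 went from -5.03 at the same age to -3.04. Within the list of 12 posterior axis genes 4 were lower in RA 42 h, but 4 others, Cdx1, Mnx1, Sp5 and Wnt3a, were higher. Each side was 33.3% of the list, against 4.51% and 6.23% of all genes.

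Chosen in the same way as the largest rises, the remaining falls were Vrtn, Pim2, Ebf1, Grm6 and Glra1, beside Egr2, Cyp26b1 and Fgf5. Pim2, a growth-promoting kinase, read 14.5, 22.6 and 22.9 CPM in RA 42 h, 333, 387 and 335 CPM in untreated 78 h and 684, 684 and 715 CPM in untreated 42 h, a log2 fold change of -4.12 ± 0.13 after -5.12. Vrtn was at -4.26 after -5.33 and Ebf1, a transcription factor, at -3.98 after -4.43. Grm6, a glutamate receptor, was at -3.94 after -6.05, at no more than 3.59 CPM in untreated 78 h. Glra1, a glycine receptor subunit, instead rose in untreated organoids, from 3.95, 4.67 and 3.77 CPM at 42 h to 20.2, 19 and 18.7 CPM at 78 h, against 1.44, 0.73 and 0.952 CPM in RA 42 h.

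Genes of neural identity had closed in part. Of 15 neural progenitor genes, 9 (60%, against 73.6% of all genes) were within 2-fold of untreated 78 h, 4 (26.7%, against 4.51%) were lower in RA 42 h, 1 was higher and 1 was undecided. At the same age 6 had been higher and 2 lower. Of the 9, Cdh2, Vim, Pax6 and Sox21 had been called at the same age, and the others had not. Untreated organoids raised 8 of the 15 between 42 h and 78 h.

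Cdh2, the neural cadherin, read 180, 164 and 138 CPM in RA 42 h, 148, 164 and 186 CPM in untreated 78 h and 33.1, 63.1 and 47.5 CPM in untreated 42 h. The libraries of RA 42 h and untreated 78 h overlapped, with a log2 fold change of -0.04 and a 95% interval from -0.24 to 0.16, after 1.74 at the same age. Vim, the progenitor intermediate filament, went from 1.53 to -0.01 (interval from -0.16 to 0.13). Sox1, the earliest neural plate marker, was at 0.02 (interval from -0.12 to 0.16), Crb2, an apical polarity gene raised by 1.75 at the same age, at 0.11 (interval from -0.07 to 0.29), and Sox21 at -0.36. Pax6, which marks neural tube progenitors, was within 2-fold at 0.76 (interval from 0.63 to 0.90) after 2.33, and the RA libraries were all higher.

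The genes with the largest rise at the same age that had closed were Dbx1, Cp, Vit, Nr2f1 and the non-coding A830082K12Rik. Dbx1, a progenitor gene of the intermediate neural tube, read 21.3, 18.2 and 16.3 CPM in RA 42 h, 22, 17.9 and 22.5 CPM in untreated 78 h and at most 0.306 CPM in untreated 42 h. A difference of 6.16 on the log2 scale had become -0.16, with an interval from -0.40 to 0.08. Nr2f1, an orphan nuclear receptor of the neural tube, read 59.2, 55.9 and 50.7 CPM in RA 42 h and 57.4, 50.8 and 55.2 CPM in untreated 78 h, against 2.23, 2.6 and 1.9 CPM in untreated 42 h, so that 4.61 became 0.03 (interval from -0.12 to 0.18). Untreated organoids passed through means of 14.1 CPM at 54 h on the way. Cp, ceruloplasmin, went from 5.26 to -0.25 and Vit, a matrix protein, from 4.65 to -0.48. The RA organoids did not stand still either: at 78 h the Dbx1 mean was 48.7 CPM and that of Nr2f1 79.7 CPM.

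The 5 largest of the falls that had closed included Cyp2b23, Sned1, Shisa6 and Calcr. For Sned1, a matrix protein, -2.35 at the same age became -0.33. Sned1, Shisa6 and Calcr stayed below the untreated libraries in each RA library although all 3 were within 2-fold.

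Hindbrain genes took all 3 courses. Of 12 tested, 6 were within 2-fold, 2 were higher and 4 were lower (Egr2, Epha4, Irx2 and Phox2a). These were 50%, 16.67% and 33.33% of the list, against 73.6%, 6.23% and 4.51% of all genes. Irx3 (0.13, after 1.48 at the same age) and Gbx1 (-0.21, after 2.29), both expressed in the hindbrain, had closed from above. Gbx2, the gene of the anterior hindbrain border, had closed from below, from -1.19 to -0.08.

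Egr2, also called Krox20 and specific to rhombomeres 3 and 5, had the largest of these falls. It read 0.279, 0.384 and 1.15 CPM in RA 42 h, 25.6, 28.3 and 52.7 CPM in untreated 78 h and 3.13, 3.45 and 2.86 CPM in untreated 42 h. The log2 fold change was -5.83 ± 0.40 (adjusted p = 2.3e-07), after -2.35 at the same age. Untreated organoids rose through 8.84 CPM at 54 h, while RA organoids stayed at a mean of 0.574 CPM at 78 h. Against the pair of untreated 54 h libraries of the earlier series the log2 fold change was -3.68 for Egr2 and -1.48 for Cyp26b1, both still called.

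**Figure D4:**
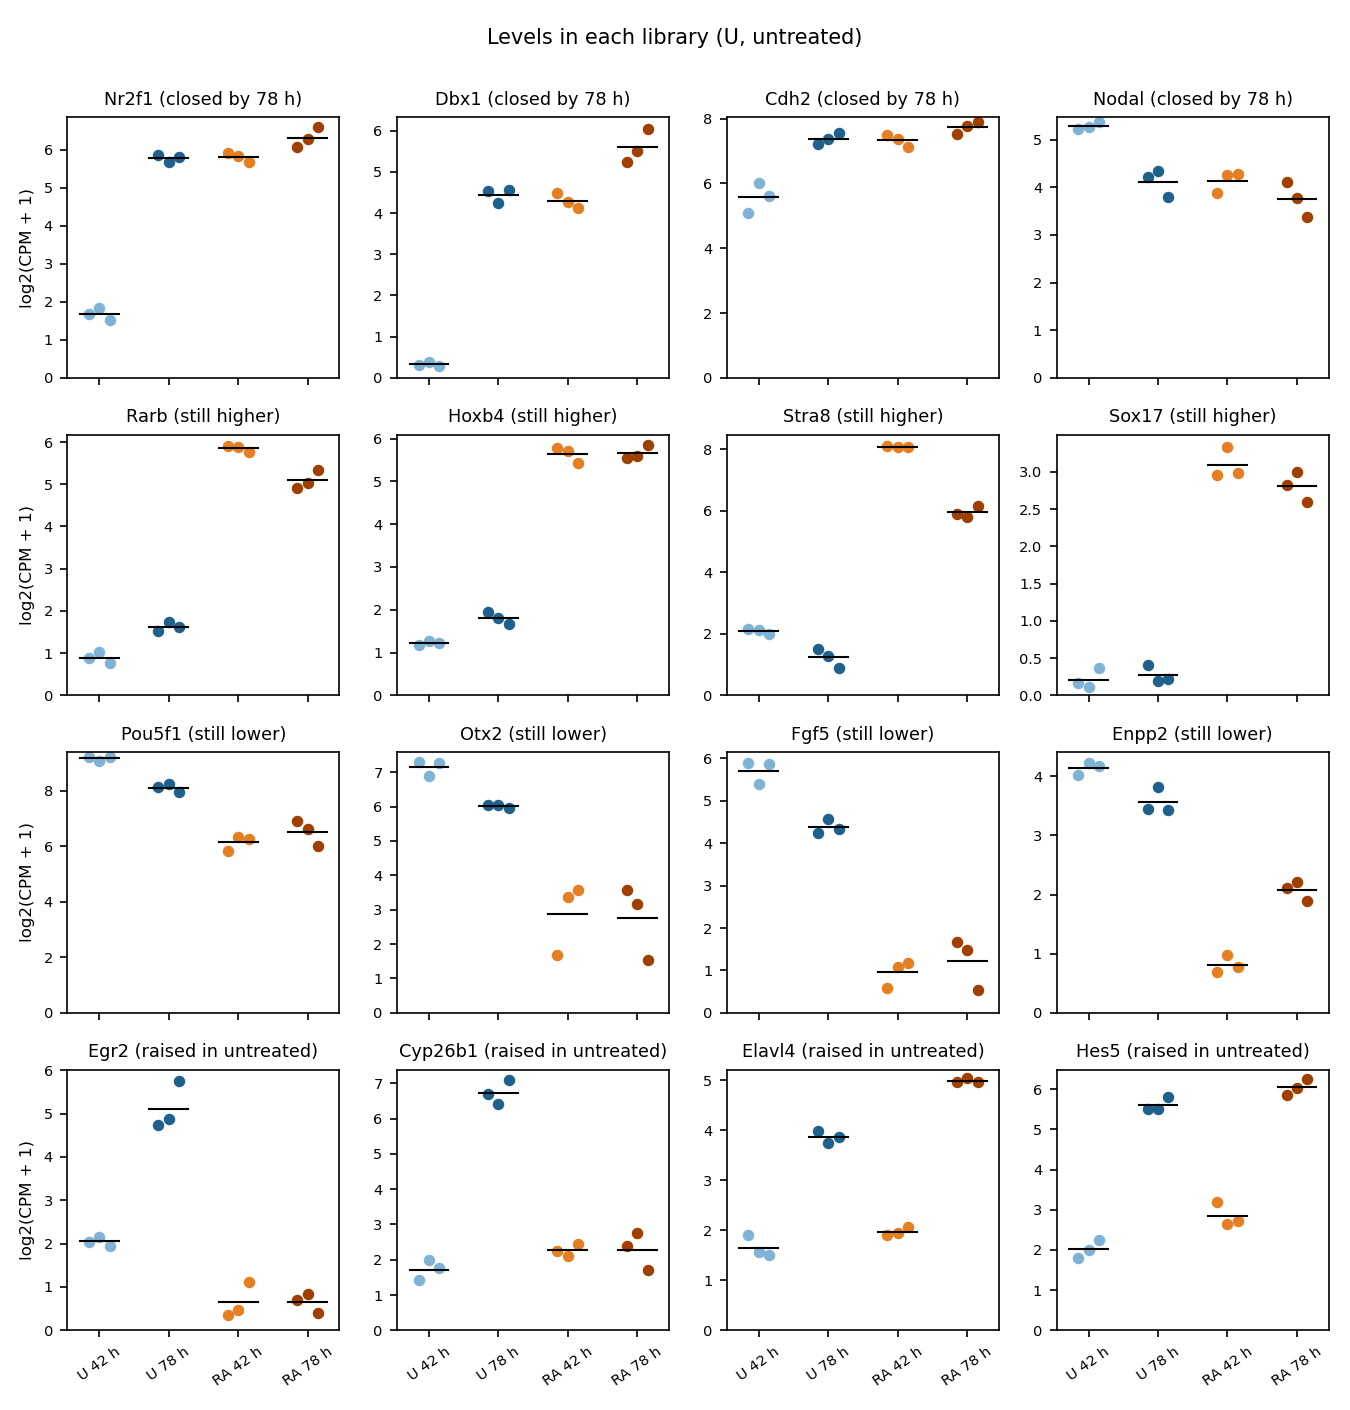
Level of 16 genes in each library, as log2 of CPM plus 1 (vertical axes, which differ between panels and start at 0), in untreated 42 h, untreated 78 h, RA 42 h and RA 78 h; points are the 3 libraries and bars their mean. In the top row the RA 42 h and untreated 78 h points sit at the same height, in the middle rows they are apart as at the same age, and in the bottom row untreated 78 h has moved above RA 42 h.

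Neuronal genes were often lower in RA 42 h than in the older untreated organoids, though not in most cases. Of 27 tested, 13 (48.1%, against 4.51% of all genes) were lower in RA 42 h, 1 was higher, 6 were within 2-fold and 7 were undecided. At the same age 6 had been lower and 3 higher, and untreated organoids raised 10 between 42 h and 78 h.

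Elavl4, an RNA-binding protein of new neurons, read 2.75, 2.84 and 3.17 CPM in RA 42 h, 14.9, 12.5 and 13.7 CPM in untreated 78 h and 2.74, 1.95 and 1.83 CPM in untreated 42 h. It was within 2-fold at the same age and had a log2 fold change of -2.22 ± 0.12 against untreated 78 h (adjusted p = 4.2e-08). Neurod4 (-2.86) and Nhlh1 (-2.63), basic helix-loop-helix factors of early neurons, and Dcx (-1.92), the microtubule protein of migrating neurons, had likewise not been called at the same age. Nefm, a neurofilament, was different, since it was lower at both ages (-2.30 and -2.68). At their own 78 h RA organoids had means of 30.9 CPM for Elavl4, 47.1 CPM for Dcx and 114 CPM for Nefm, above the untreated 78 h libraries in each case. Stmn2, by contrast, was at 43 CPM in RA 78 h and at 156, 160 and 165 CPM in untreated 78 h.

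Among the 4 neural progenitor genes that were lower in RA 42 h, Hes5 had been raised at the same age. Hes5, a Notch target, read 8.1, 5.3 and 5.59 CPM in RA 42 h, 44.2, 44.2 and 54.6 CPM in untreated 78 h and 2.46, 3.03 and 3.77 CPM in untreated 42 h. Its log2 fold change was 1.02 at the same age and -2.92 ± 0.13 against untreated 78 h (adjusted p = 7.7e-09). Hes1, another Notch target, was within 2-fold. Fabp7, a fatty acid carrier of radial glia, was at -3.34 and Sox3, a neural progenitor factor, at -1.39.

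Hes5 is 1 of the 35 genes whose direction turned from higher at 42 h to lower against 78 h. By the smaller of both differences the leading 5 were Megf10, Pou3f2, Dcc, Erbb4 and Pax7. Pou3f2, a neural POU factor, read 16.9, 11.8 and 10.5 CPM in RA 42 h, between 1.68, 2.72 and 1.68 CPM in untreated 42 h and 54, 46.3 and 50.8 CPM in untreated 78 h. Its log2 fold changes were 2.67 and -1.95 ± 0.13. Pax7 (2.69 and -1.57), Megf10 (2.18 and -2.44), Dcc, a netrin receptor (2.04 and -1.84), and Erbb4, a neuregulin receptor (1.67 and -2.52), had the same intermediate position. An RA 42 h level between the untreated levels of 42 h and 78 h follows from how these genes were chosen. Tnfsf11, a cytokine, lay between them with the reverse sign, at 4.47, 4.03 and 4 CPM between 8.45, 8.31 and 8.53 CPM and 2.22, 1.97 and 1.87 CPM.

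Some differences from untreated 78 h went with a fall on the untreated side. Of 15 germline genes tested, 9 (60%, against 6.23% of all genes) were higher in RA 42 h and 1 (6.67%, against 4.51%) was lower. A further 3 were within 2-fold and 2 were undecided. At the same age only 1 had been higher and 1 lower. Untreated organoids lowered 10 of 15 between 42 h and 78 h. Ddx4, the germ cell RNA helicase, read 29.1, 32.6 and 39.4 CPM in RA 42 h, 11, 12.6 and 10.6 CPM in untreated 78 h and 38.2, 36.2 and 37.5 CPM in untreated 42 h. Its log2 fold change was 1.57 ± 0.11, after -0.15 at the same age. The summed level of the list was 118.8 to 154 CPM in RA 42 h and 50.1 to 89.51 CPM in RA 78 h. Dppa2, of the pluripotency list, and Lefty1, of the epiblast list, were the same kind of gene, at 1.47 and 1.12 after -0.26 and 0.04.

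Genes of general cell function varied from list to list, beside the 73.6% of all genes that were within 2-fold. Of 24 cell cycle genes, 23 were within 2-fold, Mki67 at 0.00 and Top2a at 0.02 among them, and the inhibitor Cdkn1c was higher. All 16 tested genes of cholesterol and fatty acid synthesis were within 2-fold, as were 37 of 38 proteasome genes. The share was 78.3% for genes of the apical surface and cell contacts (18 of 23) and 65% for genes of matrix and basement membrane (13 of 20), of which 3 were higher and 2 lower. Of 80 ribosomal protein genes 78 were within 2-fold, at a median of -0.24 and a summed level of 33170 to 33940 CPM in RA 42 h against 39050 to 42380 CPM in untreated 78 h. Of 20 genes of glycolysis and the hypoxia response 4 (20%, against 4.51% of all genes) were lower in RA 42 h and none higher. The 4 were Adm (-3.44), Egln3 (-1.33), Pgk1 (-1.19) and Ldha (-1.06), and RA 42 h replicate 1 was the lowest library for each. Of 13 stress response genes, 3 were higher and 1 was lower. Wnt signalling counted 3 higher and 4 lower of 18, neural crest 1 higher and 3 lower of 11, and forebrain and midbrain 4 higher and 5 lower of 15.

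Lists drawn from libraries other than these 6 gave the wider picture. Untreated organoids lost 2109 genes and gained 3055 between day 2 and 66 h (12.6% and 18.2% of those tested, together 30.8%). Of the 1655 lost genes tested, 784 (47.4%) were within 2-fold between RA 42 h and untreated 78 h, 313 (18.9%) were higher in RA 42 h and 78 (4.71%) were lower. The median log2 fold change was 0.32. Of the 3036 gained genes tested, 1898 (62.5%) were within 2-fold, 149 (4.91%) were higher and 408 (13.4%) were lower, with a median of -0.21. Over all genes, 73.6% were within 2-fold, 6.23% higher and 4.51% lower. The lost genes had a median on the higher side in RA 42 h and the gained genes one on the lower side. Both lists were chosen by the untreated level at 66 h, which bears directly on that at 78 h. The sides of the medians are therefore a description.

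Genes that responded to RA at 54 h gave another picture. RA at 54 h had raised 1177 genes and lowered 983 relative to untreated 54 h (7.17% and 5.99%). Of the 1128 raised genes tested, 579 (51.3%) were higher in RA 42 h than in untreated 78 h, 333 (29.5%) were within 2-fold and 27 were lower. Of the 949 lowered genes tested, 376 (39.6%) were lower, 309 (32.6%) were within 2-fold and 9 were higher. Both lists were chosen by the RA and untreated levels at 54 h, which bear on those of RA 42 h and untreated 78 h. Their shares are therefore a description. The raised genes were also divided by what untreated organoids did up to 66 h, a division that bears directly on the untreated 78 h level, so the shares are a description. Of the 447 that untreated organoids also gained by 66 h, 122 (27.3%) were higher and 217 (48.5%) within 2-fold, while of the 551 not called in untreated organoids 351 (63.7%) were higher and 108 (19.6%) within 2-fold. Of the 339 genes that untreated organoids lost and RA lowered, 148 (43.7%) were within 2-fold and 73 (21.5%) were still lower in RA 42 h.

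Over time the median change of the genes gained by untreated organoids was 1.17 on the log2 scale from day 2 in RA 42 h and 1.30 in untreated 78 h, with 0.89 in untreated 42 h. For the lost genes it was -1.08 in RA 42 h, -1.28 in untreated 78 h and -0.93 in untreated 42 h. For the genes raised by RA at 54 h it was 1.17 in RA 42 h and 0.37 in untreated 78 h, and for those lowered -1.01 and -0.44. In the plot of list medians over time, RA 42 h lies nearer to untreated 78 h than to untreated 42 h for the gained genes, but not for the lost genes.

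**Figure D5:**
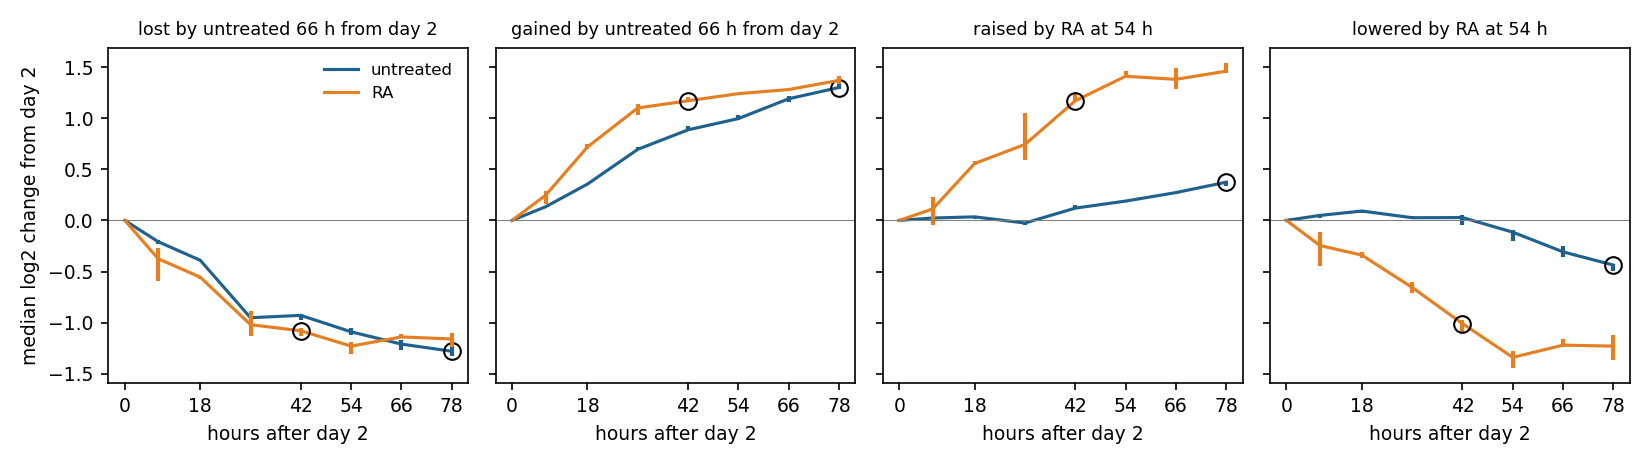
Median change from day 2, as log2 of CPM plus 1, over the genes of 4 lists (panels) against hours after day 2, in untreated (blue) and RA (orange) organoids; vertical bars span the 3 libraries. Circles mark RA 42 h and untreated 78 h, which lie at 1.17 and 1.30 for gained genes and at 1.17 and 0.37 for genes raised by RA at 54 h. The 54 h, 66 h and day 2 points helped to choose the lists.

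The change of library series was measured where it could be. In day 2, RA 30 h and untreated 54 h, the 3 populations with libraries of both series, a term for the series called 4 genes of 19194 (0.0208%). It placed 76.3% within 2-fold, so that for many genes a change with the series was undecided. Among these were Sox17, whose level was higher in the later series by 1.71 on the log2 scale (95% interval from 0.19 to 3.26), Zic1 (1.01, interval from 0.15 to 1.86) and Crabp1 (0.87, interval from 0.38 to 1.35). The RA 30 h libraries, on which the term rests in part, were themselves uneven. Their mean levels of Y-linked genes were 1.22, 30.1 and 2.03 CPM. RA 42 h against the pair of untreated 54 h libraries of the earlier series gave 969 genes higher, 610 lower and 11377 within 2-fold. In that comparison, which is also 24 h younger on the untreated side, Rarb (4.92), Hoxb4 (4.61), Stra8 (6.33), Sox17 (4.85), Fgf5 (-5.38), Otx2 (-3.72) and Pou5f1 (-2.85) were called in the same direction. Nr2f1 (2.11) and Dbx1 (2.74) were still higher in RA 42 h there, as were Vim (1.15), Crb2 (1.06) and Gbx1 (1.51). Cdh1 (-1.21), Nodal (-1.06), Spry4 (-1.22) and Gbx2 (-1.33) were still lower, while Cdh2 (0.88) and Irx3 (0.93) were not called. Of the genes called against untreated 78 h, several were not called there. These included Hes5 (-0.36), Elavl4 (-0.435), Neurod4 (-0.67), Nhlh1 (-0.48), Dcx (-1.08), Crabp1 (-0.97), Ddx4 (0.33), Dppa2 (0.14) and Lefty1 (0.24). Pax7 (0.69), Pou3f2 (0.41), Megf10 (0.34) and Dcc (0.36) lay on the other side of 0 there, uncalled. The part of library series in the comparison of RA 42 h with untreated 78 h was not tested.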

How the data were processed

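Poly(A) RNA of R1 organoids was sequenced in 45 libraries, 3 for each of 15 combinations of treatment and time. Per the labels and the study's methods, reads were trimmed with Trim Galore (0.5.0), cleared of abundant sequences with Bowtie2 (2.3.4.1), aligned with STAR to GRCm38 and assigned to Ensembl genes with featureCounts of Subread (1.6.2). The authors deposited raw counts per gene. Whether counting used strand or multiply mapped reads is not given in the sources used here, so overlapping, antisense and near-identical genes are uncertain. The labels' treatment text gives the RA dose in another unit than the design text and the study's methods, whose nM was used. Library totals were 20703819 to 25261063 counts in RA 42 h, 26469692 to 36387691 in untreated 78 h and 24970955 to 27479990 in untreated 42 h. At this depth 3 counts, the floor used for bounds, correspond to 0.0814 to 0.140 CPM.

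Comparisons were fitted one at a time, on the libraries of the groups compared, with edgeR 4.0.16 in R 4.3.3 (TMM, filterByExpr, glmQLFit and glmQLFTest, prior count 0.125), with Benjamini-Hochberg adjustment over all genes tested. Fold changes are log2, first group minus second, with standard errors from the quasi-likelihood F. CPM were scaled by TMM over all 45 libraries and are not per length, so levels were not compared between genes. The fit was tested on simulated counts. DESeq2 1.42.0, other scalings, filters and thresholds, the replicate block and the omission of single libraries were alternatives. The design text calls the replicates biological and the samples independent but does not say whether they were separate cultures, so p-values measure the spread between these libraries. Gene names came from an Ensembl table (54409 of 54532 identifiers) and promoters from RefSeq, matched by symbol. The comparison, gene lists and tests were chosen with earlier results of these data known. Genes were named from those lists, as the 8 largest rises and falls with a mean of at least 1 CPM and no overlap between libraries, as the 5 largest closed differences each way, and as the 5 with opposite directions. A few genes that these rules name are not reported here.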

Additional observations from a re-analysis of the deposited data

How the results depend on the processing

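Counts of higher and lower genes (1032 and 747) and of genes within 2-fold (12200) stayed within 1.5 times under every scaling, filter and tool tried. They moved to 3938 and 3790 at an adjusted p under 0.05 with no minimum fold change, and to 487 and 286 when glmTreat tested against a 2-fold change. Leaving out 1 library gave 933 to 1066 higher, 671 to 771 lower and 11658 to 11868 within 2-fold. Replicate numbers did not pair the libraries: deviations of same-numbered libraries correlated at -0.168, 0.0542 and -0.182. The replicate block gave 904 higher and 631 lower genes, and among genes lowered by RA at 54 h it moved those higher in RA 42 h from 9 to 5.

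The library-series term over 45 libraries moved genes that had closed from 375 to 233 (raised) and from 218 to 141 (lowered), those of the 54 h lists within 2-fold from 333 to 206 and from 309 to 184, and those of opposite direction from 27 to 7 and from 9 to 4. The lists themselves were called anew in that fit. At least 10 counts in every library, which tests fewer genes, moved the raised genes still higher from 644 to 387, gained genes higher and lower from 149 to 77 and from 408 to 195, genes raised at 54 h and higher from 579 to 374, and calls against untreated 30 h from 3004 to 1936. Without a filter, genes lowered at 54 h but higher in RA 42 h were 15, and without single libraries 3 (untreated 78 h replicate 3) to 13 (untreated 78 h replicate 1). Lists from 66 h in place of 54 h gave 188 raised and 198 lowered genes within 2-fold, and 41 and 5 of opposite direction. The cause of these moves was otherwise not tested.

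Against untreated 54 h of the earlier series, log2 fold changes turned sign for Pax7 (0.69), Wnt7a (0.0179), Megf10 (0.34), Pou3f2 (0.41), Dcc (0.36) and Tnfsf11 (-0.43). Besides L1td1 and Utf1, Tdgf1 lost its call under DESeq2 (-1.25), the series term (-1.27), the replicate block (-1.32) and without either of untreated 78 h replicates 1 and 2 (-1.10 and -1.22). Lefty1 lost its call without RA 42 h replicate 2 (0.92) or untreated 78 h replicate 3 (0.94), and Ldha without RA 42 h replicate 1 (-0.88). The Utf1, Fgf8, Lefty1, Nhlh1, Nkx6-1, Irx2 and Dcc calls were lost under the series term. Leaving out untreated 42 h libraries and the alternatives for other untreated ages were chosen after seeing the data. With 3 libraries a group, differences near 2-fold and genes near 3 counts could not be settled.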
